A study of Mus musculus with 13 samples.

Results

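The Fos and Jun genes and Atf3 were followed through a chemical conversion of mouse fibroblasts towards a neural stem cell state. The 8 genes Fos, Fosb, Fosl1, Fosl2, Jun, Junb, Jund and Atf3 were taken by symbol from an RNA-seq table of 30332 genes, and all 8 were found there. The rule used their symbols and no threshold on a value. The study asked how a cocktail of 3 small molecules, or growth factors in its place, turns fibroblasts into neural stem cells, and its title names stepwise growth factor activation and Nup210. All 9 samples came from Nestin::GFP transgenic mice, in which GFP marks cells that use Nestin regulatory sequence, a feature of neural stem cells and of some other cell types. Fibroblasts from E13.5 embryos, at passage 3, were profiled untreated (D0) and 1 and 2 days (D1 and D2) after addition of VCR. VCR stands for valproic acid, which inhibits histone deacetylases, CHIR99021, which inhibits the kinase GSK3, and RepSox, which inhibits the type I TGF-beta receptor. At 4 and 8 days of VCR (D4 and D8) GFP-positive and GFP-negative cells were collected apart by flow sorting. A further library held sorted GFP-positive fibroblasts converted with growth factors (GF), namely IL6 at 50 ng/ml for 2 days, then FGF5 at 50 ng/ml and LIF at 100 ng/ml for 4 days, and lastly 20 ng/ml each of EGF and bFGF. The last held primary neural stem cells (NSC) at passage 3, also sorted as GFP-positive, for which the labels give no age.

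AP-1 is a family of dimeric transcription factors whose subunits are bZIP proteins, each with a basic region that touches DNA and a leucine zipper that pairs with a partner. Jun proteins can pair with each other or with Fos proteins, whereas Fos proteins need a Jun partner, and Atf3 pairs with Jun proteins or with itself. The genes of Fos, Fosb, Jun and Junb are immediate early genes, switched on within minutes by growth factors and stress, while Fosl1 and Fosl2 follow later and are themselves AP-1 targets. In fibroblasts AP-1 serves growth factor responses and the expression of matrix proteases, and in injured peripheral nerve Jun is a factor of the repair state of Schwann cells.

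The sequences just upstream of 4 of the genes are shown because these genes carry the contrasts described below: Fos, Jun and Atf3 were highest in the GFP-positive library of D8, and Junb in the GFP-negative one. Each run is the last 120 bases before the annotated transcription start on the gene's own strand, from RefSeq on GRCm38.p6. Capitals mark matches, on either strand, to the core of the cAMP response element (TGACG), to an 8-letter AP-1-type site known from the Jun promoter (TGACATCA) and to a 10-letter MEF2 site, which is the second run of capitals in Jun.
Fos, chr12:85473770-85473889, plus strand: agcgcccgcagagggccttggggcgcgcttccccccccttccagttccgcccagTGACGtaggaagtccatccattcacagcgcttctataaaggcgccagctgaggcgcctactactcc
Jun, chr4:95052223-95052342, minus strand: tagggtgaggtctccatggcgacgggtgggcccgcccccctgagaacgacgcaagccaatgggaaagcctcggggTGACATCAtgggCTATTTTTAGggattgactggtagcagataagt
Atf3, chr1:191183334-191183453, minus strand: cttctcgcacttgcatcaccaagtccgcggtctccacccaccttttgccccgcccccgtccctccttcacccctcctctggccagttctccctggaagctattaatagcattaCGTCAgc
Junb, chr8:84978749-84978868, minus strand: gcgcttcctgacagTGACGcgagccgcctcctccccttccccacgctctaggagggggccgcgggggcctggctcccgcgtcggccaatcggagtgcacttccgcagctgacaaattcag

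Of the 8 genes, 7 had an upstream sequence in the reference table, and motifs were searched in the 250 bases before the start. TGACG lay 66 to 62 bases upstream of the Fos start, with a further match at 129 to 125, and 106 to 102 bases upstream of Junb. It lay 60 to 56 bases upstream of Fosb and, on the opposite strand, 7 to 3 bases upstream of Atf3. Such a match stood in 17.8% of all 32851 upstream sequences of that length. TGACATCA lay 45 to 38 bases upstream of Jun and in 2.93% of all sequences, and the MEF2 site lay 33 to 24 bases upstream of Jun and in 0.103% of all. The full cAMP response element TGACGTCA (1.55% of all), the classical AP-1 site TGANTCA (6.75%) and the CArG box (1.47%) had no match in these windows. In GRCm38.p6 the genes span, as protein-coding genes, chromosome 12 from 85473890 to 85477274 (Fos), chromosome 7 from 19302696 to 19310118 (Fosb), and chromosome 19 from 5447698 to 5455938 (Fosl1). Fosl2 spans chromosome 5 from 32136472 to 32157840, Jun chromosome 4 from 95049036 to 95052222, and Junb chromosome 8 from 84976909 to 84978748. Jund spans chromosome 8 from 70697739 to 70700616 and Atf3 chromosome 1 from 191170296 to 191183333.

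Each of the 9 groups was 1 library, so every difference is one between libraries and no p-value or standard deviation can be given. Library totals ran from 20104940 estimated counts in NSC to 36751356 in D0, and levels are given as CPM, the estimated counts scaled to the total of their library. Intervals are 95% intervals of counting error only and do not cover the spread between separate cultures. With at least 5 CPM in either library, genes that differed by 1 or more in log2(CPM + 1), the 2-fold mark, were called. Summed markers of fibroblasts ran from 3557 to 20190 CPM in the 8 fibroblast-derived libraries and to 384 CPM in NSC, where Dcn and Lum were at 0. Summed neural stem cell markers were 1449 CPM in NSC, 928 and 892 CPM in GFP-positive cells of D4 and D8, 189 CPM in GF and 19.7 to 53.8 CPM in the other 5 libraries. Macrophage markers summed to 683 CPM in NSC with 13 of 13 at 5 CPM or more, and to between 23.1 and 284 CPM elsewhere. Neural crest and Schwann markers summed to 2804 and 3146 CPM in GFP-positive cells of D4 and D8 and to between 52.7 and 378 CPM elsewhere. In bulk RNA, a change in the number of cells of a type and a change in RNA per cell cannot be told apart. The D0, D1 and D2 libraries were not sorted and the other 6 were, so sorting cannot be told apart from the later treatment times or from GF and NSC in any comparison with D0.

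Fos, the founding member of the family, was lower than in D0 early in the course and higher at its end. It stood at 203 CPM in D0, 73.5 in D1, 69.3 in D2, 367 in both the GFP-positive and the GFP-negative library of D4, and 838 and 742 CPM in the GFP-positive and GFP-negative libraries of D8. It was at 15.7 CPM in GF and at 377 CPM in NSC. The GF library was thus the lowest of the 9 and the GFP-positive library of D8 the highest, 53.3-fold apart. The order NSC, GFP-positive D4 and GFP-negative D4 was not resolved beyond counting error. Of the 6 sorted libraries, 5 lay above all 3 unsorted ones in Fos, and GF, which was sorted as well, lay below them.

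Fosb, a close relative of Fos that is expressed at low levels outside stimulated cells, had few counts. It stood at 5.82 CPM in D0, 0.297 (10 counts) in D1, 0.365 (12 counts) in D2, 2.24 in GFP-positive and 8.23 in GFP-negative cells of D4, and 5.72 in GFP-positive and 18.0 in GFP-negative cells of D8. GF held 7.72 CPM and NSC 18.4 CPM. Its low point was the same as that of Fos within the VCR course, D1 and D2, but Fosb differed by over 2-fold between the fractions of each day, while Fos did not. NSC and GFP-negative D8 were not apart beyond counting error, nor were GFP-negative D4 and GF, D0 and GFP-positive D8, or D2 and D1.

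Fosl1 and Fosl2 encode the Fos-related antigens Fra-1 and Fra-2, which lack the strong activation domain of Fos. Fosl1 stood at 21.7 CPM in D0, 56.9 in D1, 27.2 in D2, 59.0 in GFP-positive and 34.8 in GFP-negative cells of D4, and 39.7 in GFP-positive and 29.6 in GFP-negative cells of D8. GF held 85.4 CPM and NSC 2.98 CPM of Fosl1. Fosl2 stood at 33.9 CPM in D0, 73.1 in D1, 80.9 in D2, 103 in GFP-positive and 74.4 in GFP-negative cells of D4, and 117 in GFP-positive and 76.8 in GFP-negative cells of D8. GF held 525 CPM and NSC 3.18 CPM of Fosl2, a span of 165-fold, the widest of the 8 genes. Both genes were highest in GF and lowest in NSC, and Fosl1 alone had an early peak at D1. For Fosl2, the levels of D2, GFP-negative D8, GFP-negative D4 and D1 formed a run in which no neighbours were apart beyond counting error.

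Jun, the central partner of the family, was higher late in the course. It stood at 121 CPM in both D0 and D1, 147 in D2, 517 in GFP-positive and 375 in GFP-negative cells of D4, and 732 in GFP-positive and 524 in GFP-negative cells of D8. GF held 262 CPM and NSC 543 CPM. All 6 sorted libraries, at 262 to 732 CPM, lay above the 3 unsorted ones, at 121 to 147 CPM. Junb, which pairs like Jun but activates many promoters less strongly, stood at 205 CPM in D0, 259 in D1, 230 in D2, 241 in GFP-positive and 501 in GFP-negative cells of D4, and 309 in GFP-positive and 746 in GFP-negative cells of D8. GF held 352 CPM and NSC 154 CPM. Jun and Junb thus had their highest levels in opposite fractions of D8. Jund, the most constantly expressed Jun gene in most cells, stood at 212 CPM in D0, 113 in D1, 161 in D2, 233 in GFP-positive and 257 in GFP-negative cells of D4, and 218 in GFP-positive and 263 in GFP-negative cells of D8. GF held 312 CPM and NSC 531 CPM, and its span of 4.71-fold was the narrowest of the 8 genes. Its estimated counts were fractional in all 9 libraries, as can happen when reads also match transcripts of another gene, so its level is less certain. Those of Fos and Atf3 were near whole numbers in 7 of the 9 libraries, and those of each remaining member in all 9.

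Atf3, a stress-induced bZIP gene, had the most uneven pattern across the sorted fractions. It stood at 25.3 CPM in D0, 19.0 in D1, 30.6 in D2, 431 in GFP-positive and 63.9 in GFP-negative cells of D4, and 687 in GFP-positive and 34.8 in GFP-negative cells of D8. GF held 11.3 CPM and NSC 27.1 CPM. Both GFP-positive VCR libraries were far above the other 7, which ranged from 11.3 to 63.9 CPM. NSC and D0 were not apart beyond counting error.

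**Figure D1:**
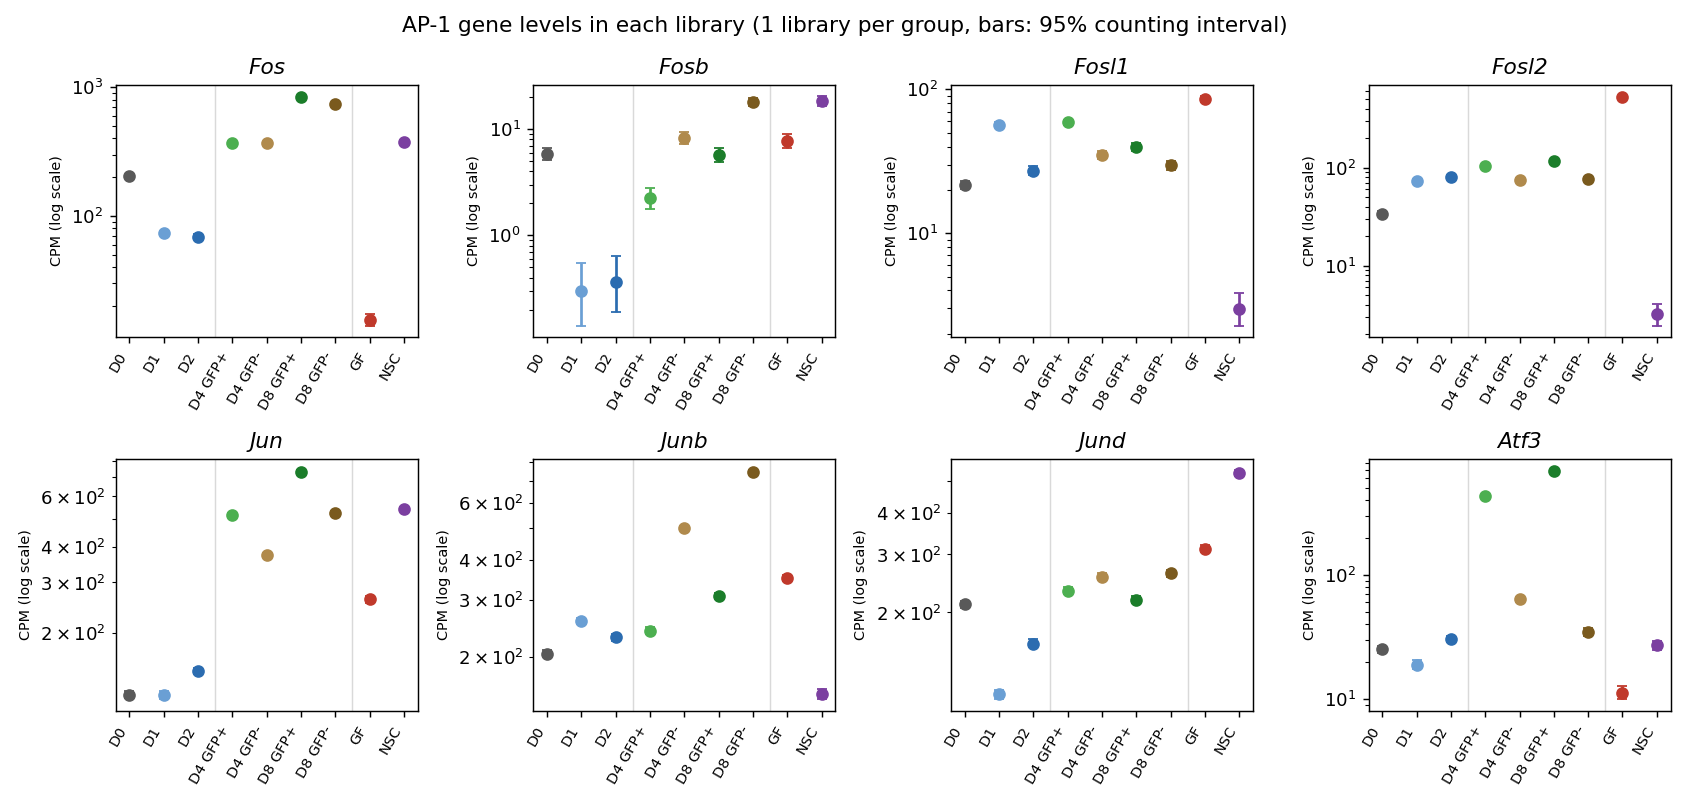
Level of each of the 8 genes in CPM (log scale) in each of the 9 libraries; each point is 1 library and its bar the 95% counting interval. Atf3 stands at 431 and 687 CPM in GFP-positive cells of D4 and D8, Fosl2 at 525 CPM in GF and 3.18 CPM in NSC, and Fos at 15.7 CPM in GF.

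The comparison of D1 and D2 with D0 asks what changed in the first days of VCR, in unsorted cells. At D1, Fosl1 and Fosl2 were called higher and Fos and Fosb lower, that is 2 and 2 of 8 members, while 6.63% of the 10532 genes compared were called higher and 5.92% lower. Fosl1 was 2.63-fold higher than at D0 (95% interval 2.42 to 2.86) and Fosl2 2.16-fold (2.01 to 2.31). Fos was 2.76-fold lower (2.64 to 2.89) and Fosb 19.6-fold lower (10.5 to 41.5). The 4 Fos genes therefore moved in both directions within 1 day, whereas Jun had a ratio of 1.00 to D0 (0.958 to 1.04). Jund, at -0.91 on the log2 scale, stayed just under the 2-fold mark, and Junb (0.33) and Atf3 (-0.40) were not called. At D2, Fosl2 was called higher (2.39-fold, 2.23 to 2.55) and Fos and Fosb lower (2.93-fold and 16.0-fold), that is 1 and 2 of 8 members, with 6.74% of 10547 genes called higher and 6.04% lower. Between D2 and D1, Fosl1 was called lower, 2.09-fold (1.93 to 2.27), 1 of the 7 members that passed the 5 CPM floor, where 2.79% of all genes were. None of the 7 was called higher, against 1.20% of all genes.

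Other genes of the same signalling are described as lists. Of 22 immediate early genes outside AP-1, 18 passed the floor at D1, with 3 called higher and 3 lower. The shares of all genes called at D1 were 6.63% higher and 5.92% lower. Ptgs2, the inducible cyclooxygenase, stood at 150 CPM in D1 against 19.6 in D0, and Ier3 at 210 against 76.1 CPM. Klf2 stood at 4.49 against 20.4 CPM and Gadd45b at 15.0 against 47.3 CPM. Of 24 listed AP-1 target genes, 22 passed the floor at D1, where 9 were called higher and 0 lower, with a median of 0.59 over the list against 0.03 over all genes. Areg, an EGF receptor ligand, stood at 16.6 CPM in D1 against 0.381 in D0, and Il6 at 78.1 against 6.01 CPM. At D2, 20 targets passed the floor, and 6 were called higher and 3 lower, against 6.74% and 6.04% of all genes. Their median was 0.22 against 0.04 over all genes. Mmp3, the stromelysin gene, stood at 194 CPM in D2 against 33.4 in D0. Among the upstream kinases and factors, 1 of 23 was called higher at D1, Crem, a CREB-family gene, at 87.8 CPM against 16.4 in D0. That share was near the one of all genes.

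The sorted fractions of 4 and 8 days set against D0 show which members differed from untreated, unsorted fibroblasts. In the GFP-positive library of D4, Fosl1, Fosl2, Jun and Atf3 were called higher and Fosb lower, 4 and 1 of 8 members, with 38.5% of 11378 genes called higher and 11.3% lower. Atf3 was 17.0-fold higher (15.9 to 18.2) and Jun 4.27-fold (4.13 to 4.41). In the GFP-positive library of D8, Fos, Fosl2, Jun and Atf3 were called higher and no member lower, against 35.7% and 13.4% of 11311 genes. Atf3 was 27.1-fold higher (25.4 to 29.0), at rank 120 from the top among the genes compared. Jun was 6.04-fold higher (5.85 to 6.24) and Fos 4.13-fold (4.02 to 4.24). The share of members called was near that of all genes. On the log2 scale the difference of the median gene from D0 was 0.51 at D4 and 0.45 at D8, against 0.03 and 0.07 with median ratio scaling. Of all calls, 77.3% at D4 and 72.8% at D8 were higher, against 50.0% and 50.4% with that scaling and 50.8% and 47.9% with TMM scaling. Median ratio scaling left Atf3 at 3.45 and 4.23 and Jun at 1.49 and 2.10, while Fosl1 (0.83) and Fosl2 (0.99) at D4 were then under the 2-fold mark.

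In the GFP-negative library of D4, Fosl2, Jun, Junb and Atf3 were called higher and no member lower, 4 and 0 of 8, where 11.0% of 10794 genes were higher and 5.28% lower. In that of D8, Fos, Fosb, Fosl2, Jun and Junb were called higher, 5 of 8, and no member lower, against 16.4% and 6.12% of 10890 genes. Jun was 4.33-fold higher at D8 (4.18 to 4.48), Fos 3.65-fold (3.56 to 3.76), Junb 3.64-fold (3.54 to 3.74) and Fosb 3.10-fold (2.62 to 3.67). Of all calls, 67.5% at D4 and 72.8% at D8 were higher, against 40.6% and 50.3% with median ratio scaling and 44.2% and 43.7% with TMM scaling. With median ratio scaling 4 of the 5 members of D8 kept the call, with Fosl2 at 0.88. At D4 Jun alone kept it, at 1.30, with Junb at 0.96, Atf3 at 0.99 and Fosl2 at 0.80.

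**Figure D2:**
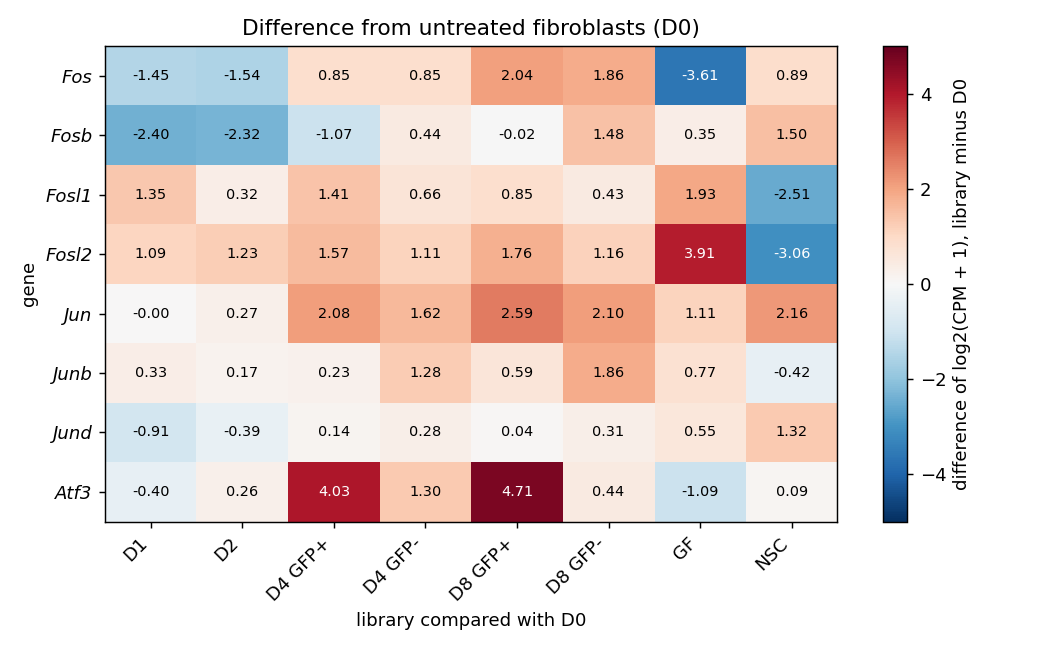
Difference of log2(CPM + 1) from D0 for each gene (rows) in each other library (columns), red where the library is higher than D0 and blue where it is lower. Fos is at -1.45 and -1.54 in D1 and D2, at 2.04 and 1.86 in the GFP-positive and GFP-negative libraries of D8 and at -3.61 in GF.

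The fractions of the same day share their treatment time and were both sorted, so neither differs between them. Atf3 was called higher in GFP-positive cells, and Fosb and Junb lower, at both days, 1 and 2 of 8 members each time. At D4 25.4% of 11360 genes were higher and 11.5% lower, and at D8 20.3% and 12.2% of 11351 genes. Atf3 was 6.74-fold higher in GFP-positive cells at D4 (6.41 to 7.09) and 19.8-fold at D8 (18.4 to 21.2), at rank 74 from the top. Junb was 2.08-fold lower in GFP-positive cells at D4 (2.02 to 2.13) and 2.42-fold lower at D8 (2.35 to 2.48). Fosb was 3.67-fold lower (2.83 to 4.81) and 3.16-fold lower (2.63 to 3.80). Fos itself had ratios of 1.00 (0.977 to 1.03) and 1.13 (1.11 to 1.15), and Jun of 1.38 (1.35 to 1.41) and 1.40 (1.37 to 1.43). All 3 calls held at both days under median ratio, TMM and trimmed-total scaling. Of all calls, 68.7% at D4 and 62.5% at D8 were higher, against 51.8% and 50.0% with median ratio scaling and 50.5% and 51.7% with TMM scaling. Fosl1 and Fosl2 lay above 0 at both days (0.75 and 0.41, and 0.46 and 0.60 on the log2 scale) and were not called, and Jund lay at -0.14 and -0.27. Other markers moved with the fractions: 10 of 12 neural crest and Schwann markers were called higher in GFP-positive cells at each day, and macrophage markers summed to 284 CPM in GFP-positive and 31.2 in GFP-negative cells of D4 and to 164 and 23.1 CPM in those of D8. Their part in the Atf3, Junb and Fosb differences was not tested.

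**Figure D3:**
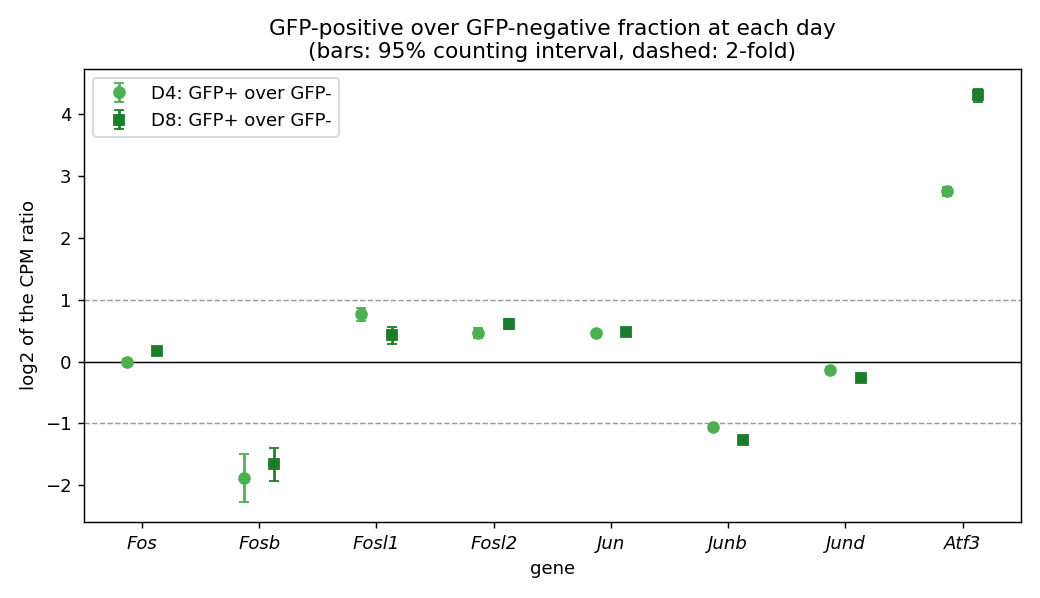
Log2 of the CPM ratio of the GFP-positive over the GFP-negative library at D4 (circles) and D8 (squares) for each gene, with 95% counting intervals; dashed lines mark 2-fold. Atf3 lies above the upper line and Junb and Fosb below the lower line at both days, with ratios of 19.8, 0.414 and 0.317 at D8.

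The immediate early genes outside AP-1 went with Junb and Fosb more than with Atf3. Of the 22, 2 were called higher and 7 lower in GFP-positive cells at D4, and 2 higher and 9 lower at D8. The medians were -0.56 and -0.86 against 0.25 and 0.16 over all genes. The shares of all genes called were 25.4% higher and 11.5% lower at D4, and 20.3% and 12.2% at D8. Klf4 stood at 6.41 CPM in GFP-positive and 51.8 in GFP-negative cells of D4 and at 3.92 and 32.9 CPM in those of D8. Btg2, an antiproliferative gene, stood at 127 and 782 CPM at D4 and at 83.5 and 523 CPM at D8. Klf10, a gene induced by TGF-beta, went the other way, with 184 CPM in GFP-positive and 52.7 in GFP-negative cells of D4 and 183 and 47.8 CPM at D8. Of 13 heat shock genes that cell dissociation is known to raise, 0 were called higher and 3 lower in GFP-positive cells at D4, and 0 and 4 at D8. Their medians were -0.78 at D4 and -0.74 at D8. Hspa1a stood at 12.2 CPM in GFP-positive and 23.8 in GFP-negative cells of D4 and at 18.1 and 65.9 CPM at D8, beside 5.65 to 10.3 CPM in the 3 unsorted libraries. Hspa1b stood at 13.7 and 26.5 CPM at D4 and at 13.6 and 62.1 CPM at D8. Its GFP-positive levels thus lay within the unsorted range of 13.2 to 14.6 CPM. Against D0, 1 of the 13 was called higher and 0 lower in GFP-negative cells at D4, and 4 and 1 at D8. The list medians were 0.14 and 0.05, against 0.25 and 0.27 over all genes. Of all genes 11.0% were called higher and 5.28% lower at D4, and 16.4% and 6.12% at D8. Hspb1 stood at 398 to 561 CPM in the unsorted libraries. It stood at 330 and 190 CPM in GFP-negative cells of D4 and D8. The part of these stress genes in the levels of Junb and Fosb was not tested.

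In CPM, listed genes upstream of AP-1, like all genes, were more often called higher than lower in GFP-positive cells. For all genes this rested on the scaling. Of all calls 68.7% at D4 and 62.5% at D8 were higher, against 51.8% and 50.0% with median ratio scaling. Of 23 kinases and factors, 10 were called higher at D4 and 8 at D8 and 0 lower, with medians of 0.87 and 0.52 against 0.25 and 0.16 over all genes, of which 25.4% and 20.3% were called higher. Mef2c, a MADS-box factor gene, stood at 57.8 CPM in GFP-positive and 14.0 in GFP-negative cells of D4 and at 31.8 and 13.3 CPM at D8, and Mapk3, which encodes ERK1, at 192 and 71.8 CPM at D4 and at 237 and 63.1 CPM at D8. Of 11 MAPK phosphatases, 5 were called higher and 1 lower at D4, and 4 and 1 at D8. Dusp10, which acts on JNK and p38, stood at 79.8 CPM in GFP-positive and 9.90 in GFP-negative cells of D8. Dusp5, an ERK phosphatase, stood at 27.2 and 2.42 CPM at D8, and Dusp1 at 130 and 690 CPM. Dusp1 is itself an immediate early gene and lay on the side of Junb and Fosb. Of 7 measured ubiquitin ligases and inhibitors of Jun, 1 was called higher at each day and 0 lower, Itch, a ligase known to act on Jun proteins, at 131 CPM in GFP-positive and 51.0 in GFP-negative cells of D8. Of 15 other dimer partners, 10 passed the floor and 1 was called lower at each day.

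Stress pathways known to induce Atf3 were followed as lists too. Of all genes 25.4% were called higher in GFP-positive cells and 11.5% lower at D4, and 20.3% and 12.2% at D8. Of 14 genes of the ATF4 and unfolded protein response, 1 was called higher and 4 lower in GFP-positive cells at D4, and 0 and 3 at D8, where 12 passed the floor. The list median was -0.09 at D4 and -0.54 at D8, against 0.25 and 0.16 over all genes. Slc7a11, the gene called higher, stood at 17.1 CPM in GFP-positive and 6.23 in GFP-negative cells of D4. Ddit3, which encodes the stress factor CHOP, stood at 42.4 CPM in GFP-positive and 128 in GFP-negative cells of D4, and was called lower again at D8. Atf4 stood at 192 and 232 CPM at D4 and at 94.9 and 149 CPM at D8. Of 12 p53 targets, 0 were called higher and 3 lower at each day, Cdkn1a among them at 720 CPM in GFP-positive and 1584 in GFP-negative cells of D8. Cell cycle genes moved with the fractions as well, 11 of 16 called higher in GFP-positive cells and 0 lower at each day. The part of the stress and cell cycle lists in the Atf3 difference was not tested.

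Between D4 and D8 both fractions had the same pair of members called. Fos and Fosb were called higher at D8 in GFP-positive cells, 2 of 8, where 1.28% of 11106 genes were called higher, and no member was lower, against 1.49% of all. In GFP-negative cells Fos and Fosb were again called higher, where 3.68% of 10790 genes were, with no member lower against 1.47%. Fos was 2.28-fold higher at D8 in GFP-positive (2.23 to 2.33) and 2.02-fold higher in GFP-negative cells (1.97 to 2.07). Fosb was 2.55-fold higher (1.94 to 3.38) and 2.19-fold higher (1.86 to 2.59). These values lie close to the mark, and Fos and Fosb in GFP-negative cells lost the call with TMM scaling. Of all calls between the GFP-positive libraries 46.1% were higher, against 62.8% with median ratio scaling. Atf3 went in opposite directions without a call in either fraction, at 0.67 in GFP-positive and -0.86 in GFP-negative cells on the log2 scale, and this difference between fractions was not tested.

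GF cells, which reached a GFP-positive state without VCR, had a different set of members. Against D0, Fosl1, Fosl2 and Jun were called higher and Fos and Atf3 lower, 3 and 2 of 8 members, with 32.1% of 11398 genes called higher and 16.0% lower. Fosl2 was 15.5-fold higher than in D0 (14.6 to 16.4) and Fosl1 3.94-fold (3.63 to 4.29). Fos was 12.9-fold lower (11.6 to 14.4), at rank 71 from the bottom, and Atf3 2.24-fold lower (1.94 to 2.58). Against GFP-positive VCR cells of D8, Fosl1 and Fosl2 were called higher in GF and Fos, Jun and Atf3 lower, 2 and 3 of 8, with 21.5% of 11856 genes higher and 28.2% lower. Fos was 53.3-fold lower (48.0 to 59.5), Atf3 60.7-fold lower (53.6 to 69.0) and Jun 2.80-fold lower (2.72 to 2.88). Fosl2 was 4.48-fold higher (4.31 to 4.66). With TMM scaling Jun, at 0.86 against D0, was no longer called. Of all calls against D0 66.7% were higher, against 55.4% with TMM scaling, and of those against GFP-positive VCR cells 43.3% were, against 59.8% with median ratio and 55.2% with TMM scaling. The agents and the time in culture both differ between GF and VCR cells and cannot be told apart.

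NSC differed from all fibroblast-derived libraries in the Fos-related antigens. Against D0, Fosb, Jun and Jund were called higher and Fosl1 and Fosl2 lower, 3 and 2 of 8 members, where 49.9% of 12906 genes were higher and 17.4% lower. Fosl2 was 10.7-fold lower (8.28 to 13.9) and Fosl1 7.26-fold lower (5.58 to 9.60). The median gene lay 0.83 above D0, and Jun, at 2.16, was 4.49-fold higher (4.33 to 4.65), at rank 3539 from the top. Of all calls 74.2% were higher, against 60.9% with median ratio scaling, under which Jund, at 0.78, was no longer called. With TMM scaling 45.7% were higher, Fosb (0.55) and Jund (0.27) were not called, and Junb was called lower. Against NSC, GFP-positive cells of D8 had Fos, Fosl1, Fosl2, Junb and Atf3 called higher and Fosb and Jund lower, 5 and 2 of 8, with 17.8% of 12939 genes higher and 33.9% lower. Fosl2 was 36.8-fold higher (28.7 to 47.9), Atf3 25.4-fold (23.3 to 27.7) and Fosl1 13.3-fold (10.3 to 17.6), and Junb lay on the mark at 2.01-fold (1.93 to 2.10). Of all calls in that comparison 34.4% were higher, against 56.4% with TMM scaling, under which Jund (-0.77) was not called. In GF against NSC, Fosl1, Fosl2 and Junb were called higher and Fos, Fosb, Jun and Atf3 lower, 3 and 4 of 8, with 21.2% of 13209 genes higher and 42.4% lower. Fosl2 was 165-fold higher in GF (129 to 214), at rank 68 from the top. Of all calls 33.3% were higher, against 46.1% with median ratio scaling, under which Fosb (-0.74), Jun (-0.60) and Atf3 (-0.76) were not called. With TMM scaling 57.5% were higher, and the same 3 members, at -0.41, -0.25 and -0.43, were not called. NSC also had the highest summed macrophage markers, with C1qb at 109 CPM and Aif1 at 8.16 CPM, against at most 8.88 and 0.0903 CPM elsewhere. Lyz2, Cd68 and Cd14 of the same list were not highest there. They stood at 45.8, 14.2 and 5.97 CPM in NSC, against 185 and 47.8 CPM of Lyz2 and Cd68 in GFP-positive D4 and 27.3 CPM of Cd14 in GF. NSC held the most Hspa1a and Hspa1b as well, 145 CPM each. Of the 13 heat shock genes, however, 4 were called higher and 4 lower in NSC than in D0. The median over that list was 0.65 against 0.83 over all genes. Hspb1 and Bag3 were lowest in NSC, at 18.2 and 5.02 CPM. The part of these markers and heat shock genes in the Fos, Fosb, Jun and Jund levels of NSC was not tested.

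Of the 22 immediate early genes outside AP-1, 8 were called higher in GF than in D0 and 4 lower. These shares were near those of all genes, 32.1% higher and 16.0% lower. Ptgs2 stood at 516 CPM in GF against 19.6 in D0 and Nr4a2, an orphan nuclear receptor gene, at 158 against 6.13 CPM. Btg2 stood at 86.4 against 349 CPM and Cyr61, which encodes a matricellular protein, at 338 against 1356 CPM. Low Fos in GF did not extend to all early response genes. In NSC 4 were higher and 9 lower than in D0, where 49.9% of all genes were higher and 17.4% lower. Egr1, a zinc finger gene that responds to the same kinases as Fos, stood at 1089 CPM in NSC against 192 in D0, and Egr2 at 44.8 against 14.7 CPM. Of 15 other dimer partners, 12 passed the floor in GF against D0, with 5 called higher and 0 lower. Of all genes 32.1% were called higher and 16.0% lower in that comparison. Maff, a small Maf gene, stood at 62.1 CPM in GF against 4.90 in D0 and Batf, known from lymphocytes, at 21.2 against 2.18 CPM.

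**Figure D4:**
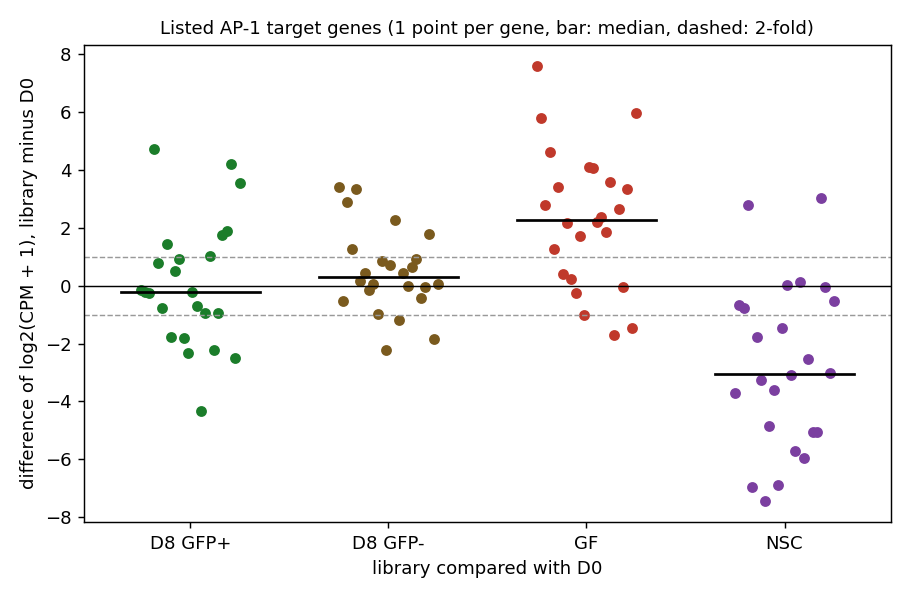
Difference of log2(CPM + 1) from D0 for the 24 listed AP-1 target genes (1 point each) in the GFP-positive and GFP-negative libraries of D8, in GF and in NSC; bars are medians and dashed lines mark 2-fold. The median is 2.28 in GF and -3.06 in NSC, with 17 of 24 genes called higher than D0 in GF and 15 called lower in NSC.

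Listed AP-1 target genes, like Fosl1 and Fosl2, were mostly higher in GF and lower in NSC than in D0, and fibroblast markers moved the same way. Of 13 fibroblast markers 13 were called higher in GF than in NSC, with medians of 1.64 in GF and -6.52 in NSC against D0, and their part in the target list was not tested. In GF 17 of 24 target genes were called higher than in D0 and 3 lower, with a median of 2.28 against 0.19 over all genes. In NSC 2 target genes were higher and 15 lower, with a median of -3.06 against 0.83. Mmp3 stood at 6547 CPM in GF, 1.61 in NSC and 33.4 in D0, and Timp1, an inhibitor of metalloproteases, at 2898 CPM in GF, 2.79 in NSC and 648 in D0. Lif, a target and a growth factor of the GF protocol, stood at 257 CPM in GF. In the VCR fractions the list went both ways. In GFP-positive cells of D8, 7 targets were called higher than D0 and 6 lower, against 35.7% and 13.4% of all genes. The list median was -0.23 there against 0.45 over all genes. In GFP-negative cells of D8, 6 were higher and 3 lower, against 16.4% and 6.12%, with a median of 0.29 against 0.27. Between the fractions of D8, 8 were higher and 10 lower in GFP-positive cells, against 20.3% and 12.2% of all genes. Lif stood at 48.3 CPM in GFP-positive and 3.40 in GFP-negative cells, and Mmp12, the macrophage elastase gene, at 140 and 11.7 CPM. Mmp3 stood at 30.2 CPM in GFP-positive and 363 in GFP-negative cells of D8.

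Counts of one member per 100 counts of another in the same library do not depend on how libraries are scaled, and were taken up after the members' values had been seen. They compare libraries, not the abundance of 1 gene with that of another, since gene length was not taken into account. There were 16.7 Fosl2 counts per 100 Fos counts in D0 (95% interval 15.7 to 17.7), 99.4 in D1 and 117 in D2. The count was 27.9 in GFP-positive and 20.3 in GFP-negative cells of D4 and 14.0 and 10.4 in those of D8. GF had 3341 (3002 to 3727) and NSC 0.844 (0.650 to 1.08). The ratio was thus above that of D0 in the first days and below it at D8, while GF and NSC lay at the extremes. Fosl1 per 100 Fos counts went the same way at the extremes, with 544 in GF and 0.792 in NSC, and between 3.99 and 77.4 in the VCR course.

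**Figure D5:**
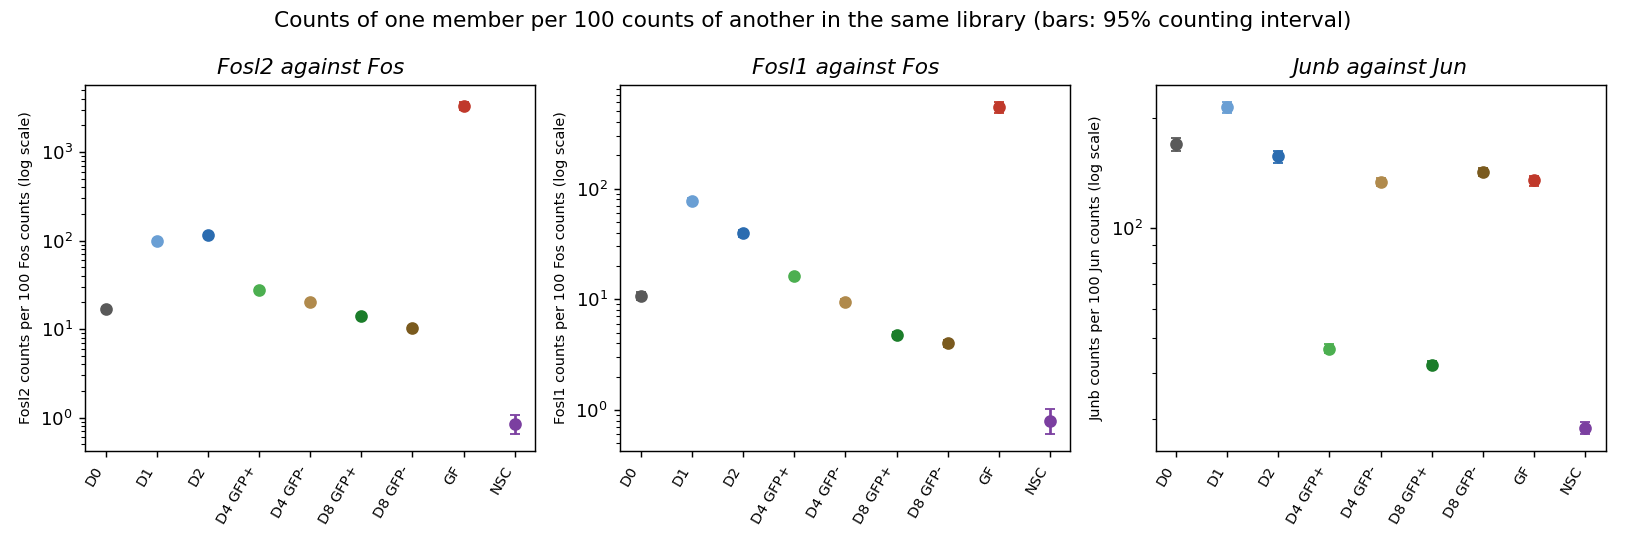
Counts of Fosl2 and of Fosl1 per 100 Fos counts, and of Junb per 100 Jun counts, in each library (log scale), with 95% counting intervals. Junb per 100 Jun counts is 46.7, 42.2 and 28.3 in GFP-positive cells of D4 and D8 and in NSC, and 134 or more in the other 6.

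Junb per 100 Jun counts was lower in GFP-positive VCR cells than in their GFP-negative counterparts and nearer to the ratio of NSC. The count was 170 in D0 (163 to 176), 214 in D1 and 157 in D2. It was 46.7 (45.5 to 48.0) in GFP-positive and 134 (130 to 137) in GFP-negative cells of D4, and 42.2 (41.2 to 43.3) in GFP-positive and 142 (139 to 146) in GFP-negative cells of D8. NSC had 28.3 (27.2 to 29.4), while GF had 135 (130 to 139). The 2 GFP-positive VCR libraries and NSC lay below the other 6, among them GF, which was sorted as GFP-positive too. How many other gene pairs divide the 9 libraries in this way was not examined. Jund per 100 Jun counts did not divide the libraries in this way, with 45.2 and 29.8 in GFP-positive and 68.6 and 50.2 in GFP-negative cells of D4 and D8, and 97.8 in NSC. Fosb per 100 Fos counts was lower in GFP-positive cells as well, with 0.610 and 0.682 against 2.25 and 2.43 in GFP-negative cells of D4 and D8. It differed from Junb in NSC, which had 4.87, so that here the GFP-positive cells were the farther from NSC.

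Over the 9 libraries, Fosl1 and Fosl2 were the pair of members with the closest pattern (Pearson r = 0.94 of log2(CPM + 1)), followed by Fosb and Jund (0.85). Without NSC and GF, over 7 libraries, the first was 0.64. Fos and Jun had an r of 0.67, which was 0.90 without NSC and GF. Fos and Fosl2 had an r of -0.45, which turned to 0.33 without these 2 libraries and so rested on them. The points share their scaling, and no p is given. Among 10812 other genes that reached 20 CPM in at least 1 library, those nearest to Atf3 were Tnip2 (0.989), which encodes a binding partner of A20, Sgpl1 (0.985), the sphingosine phosphate lyase, and Srpk2 (0.984), an SR protein kinase. Tnip2 stood at 97.9 CPM in GFP-positive and 20.9 in GFP-negative cells of D4 and at 108 and 17.8 CPM in those of D8. Nearest to Jun were Gigyf2 (0.991), Dgat1 (0.984) and Tcf12 (0.974), and nearest to Fos were Pusl1 (0.984), Fbxw2 (0.980) and Nufip2 (0.977). Near to Fosl1 were Ogfod1 (0.967) and Itga5, an integrin gene (0.965). Ogfod1 (0.984) was nearest to Fosl2, before Dram1 (0.983) and Anxa11 (0.970). Junb had Cnpy4 (0.958), Irs1 (0.951) and Gda (0.950), Fosb had Jmjd6 (0.955), Cdk13 (0.921) and Gabarapl1 (0.910), and Jund had Sars2 (0.969) and Tarbp2 (0.966). The highest of so many correlations over 9 points are high by selection. Of the 24 places, 3 for each member, with Ogfod1 in 2 of them, 11 held a gene that was again in its member's 3 with median ratio scaling, 7 with TMM scaling and 5 without NSC and GF.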

How the data were processed

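Values come from the 9 RNA-seq libraries; 4 ATAC-seq samples were left aside. The authors' deposited table holds estimated counts per gene symbol, with 1 column per library; its values are not TPM, since columns sum to unequal totals. Per the submitters' processing notes, kallisto 0.43.1 and GRCm38 were used among other tools; how transcripts were summed to genes is not given in the sources used here. The deposited estimated counts were scaled to CPM by column totals. Differences are of log2(CPM + 1), which understates changes of low genes, and were called at 2-fold with 5 CPM or more in either library. With 1 library per group no test across genes was possible. Ratios have exact conditional binomial and levels exact Poisson 95% intervals, on counts rounded to whole numbers. List medians use genes with a mean of 1 CPM or more. A gene's call and the intervals were tested on simulated data. Named genes were the 8 members, the 3 genes nearest to each in Pearson r, and up to 2 called genes per direction and list. The members, lists and comparisons were chosen with earlier results of these data known, and the ratios between members after their values were seen. Atf4, Aif1, C1qb, Lyz2, Cd68 and Cd14 were named after their values were seen. Alternatives were other pseudocounts, floors, a 3-fold mark and, with edgeR 4.0.16, TMM scaling, beside median ratio scaling over 8290 genes and a trimmed total. Sequences and positions are from RefSeq on GRCm38.p6. A few genes that the naming rule selects are not reported here.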

Additional observations from a re-analysis of the deposited data

Results flagged for a closer look

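Several members moved 2-fold in opposite directions from D0 in 2 libraries. With 1 library per group none of these differences between groups was tested. Fos was lower in GF (-3.61 on the log2 scale) and higher in GFP-positive VCR cells of D8 (2.04), and Atf3 was likewise at -1.09 in GF and at 4.71 in those cells. Fosl1 was at 1.93 in GF and at -2.51 in NSC. Fosl2 was at 3.91 in GF, at 1.76 in GFP-positive VCR cells of D8 and at -3.06 in NSC. All of these share the D0 library.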

How the results depend on the processing

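No paired analysis was possible because each group was 1 library, and for the same reason no replicate could be left out. No member's difference that was called changed direction under any alternative, and of the 65 member calls 49 were kept under all scalings. Pseudocount 0.1 and floors of 1 CPM or none kept all 65. With a pseudocount of 5 CPM 56 were kept, and counts of members called lower became 0 at D2 against D1 and in GFP-positive D4 against D0, 1 in GFP-positive against GFP-negative D4, 1 in GF against D0 and 2 in GF against NSC, while those called higher at D8 against D4 became 1 in each fraction. With median ratio scaling 54 were kept, and counts higher became 2 in GFP-positive and 1 in GFP-negative D4 against D0 and 1 in GFP-positive D8 against D4, with 1 lower in GF against NSC. With TMM scaling 52 were kept, and counts higher became 2 in GFP-negative D4 against D0, 0 in GFP-negative D8 against D4 and 1 in NSC against D0, with 1 lower in GFP-positive D8 against NSC and 1 lower in GF against NSC. Totals that left out the 20 most abundant genes and those of mitochondria and ribosomal proteins kept 63, with 1 higher in GFP-negative D8 against D4. At a 3-fold mark 29 were kept. Counts higher then became 0 at D1 and D2 against D0, 2 in GFP-positive D4, 1 in GFP-negative D4, 3 in GFP-negative D8 and 1 in NSC against D0, 0 at D8 against D4 in each fraction, 3 in GFP-positive D8 against NSC and 1 in GF against GFP-positive D8. Counts lower became 1 at D1 and D2 and in GF against D0, 0 at D2 against D1, 0 in GFP-positive D4 against D0, 0 between fractions at each day, 0 in GFP-positive D8 against NSC and 1 in GF against NSC. Over all genes, the 32 counts of calls moved by over 1.5 times in 12 cases with a pseudocount of 5 CPM, 10 with median ratio scaling, 13 with TMM scaling and 26 at 3-fold, between 0.132 and 1.94 times the reported count. The causes were not tested. Depth limited Fosb, with 10 and 12 counts at D1 and D2.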
